A study of Homo sapiens with 20 samples.

Results

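BCI, a small molecule that inhibits the dual-specificity phosphatases DUSP1 and DUSP6, was given to HEL cells at 1 µM for 4 h, and their RNA was compared with that of HEL cells given the solvent DMSO for 4 h. HEL is an established human erythroleukaemia line whose growth depends on a mutant JAK2 kinase (V617F). The comparison rests on 4 of the 20 libraries of the series, chosen by the labels for time and treatment: 2 BCI libraries and 2 DMSO libraries. BCI and DMSO libraries at 48 h, 2 of each, come from the same count table and entered the same fit. Cells of all 4 groups were grown in RPMI medium with serum and carried the same JAK2 mutation. The labels record duplicate treatments, and no source used here says that the duplicates were separate cultures, so p-values measure the spread between these samples, which may be technical. Phosphatase activity and phosphorylated ERK were not measured in these files.

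DUSP1 and DUSP6 remove phosphate from MAP kinases, with DUSP6 acting mainly on ERK in the cytoplasm and DUSP1 acting on p38, JNK and ERK in the nucleus. ERK induces DUSP6 and other phosphatases, which then limit ERK, so the transcripts of these genes are often read as a record of ERK output. Cells also answer reactive chemicals and misfolded protein through separate transcription programmes: HSF1 induces chaperones, NRF2 induces antioxidant enzymes, and ATF4 with the unfolded protein response adjusts amino acid supply and protein folding in the endoplasmic reticulum. JAK2 signals in blood cells through STAT proteins, which induce their own inhibitors such as SOCS3 and CISH.

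The 4 libraries held 72026935 and 75530104 counts for BCI and 63916850 and 64448884 counts for DMSO, and the 8 libraries of the table ranged from 63916850 to 84452743. Levels are given as CPM, counts scaled by TMM library size. A gene with no count could still stand at up to 3 counts by counting error, which is 0.0406 to 0.0486 CPM at 4 h. The biological coefficient of variation was 13.3% over the 8 libraries and 6.2% over the 4 h libraries alone. Mitochondrially encoded genes took 3.26% and 4.37% of counts in BCI libraries and 3.62% and 3.67% in DMSO libraries. The line was checked against its markers: the fetal globin gene HBG2 stood at 1570 and 1436 CPM under BCI and 1259 and 1252 CPM under DMSO, and the platelet integrin ITGA2B at 2052 and 2060 CPM under BCI and 2145 and 2275 CPM under DMSO. HBZ, PF4 and CD9 were low in every 4 h library. Marker lists of other cell types had no called member, at 0 of 8 lymphoid, 0 of 7 epithelial and stromal and 0 of 7 monocyte and granulocyte genes tested. Their summed levels were 30.1 to 30.7, 314 to 319 and 40.8 to 44.3 CPM under BCI and 33.5 to 34.4, 305 to 316 and 36.3 to 38.6 CPM under DMSO, in that order of lists. The alarmin S100A8 had 0 counts in each of the 4 libraries.

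Within 4 h many chaperone and antioxidant transcripts rose steeply under BCI. Falls were smaller and covered most ribosome biogenesis genes and part of the sterol synthesis, cyclin, JAK-STAT and progenitor regulator lists. Immediate-early genes moved both ways (6 risen, 7 fallen), and red cell genes gave 4 rises and no fall. Of 21908 genes tested, 2354 passed the threshold (edgeR quasi-likelihood test, Benjamini-Hochberg adjusted p under 0.05), which is 10.7% of them. The share was 15.1% among protein-coding genes and 22.7% among genes at 64 to 256 CPM in DMSO libraries. The 1052 genes that rose were 4.8% of all genes and the 1302 that fell were 5.94%. That balance depended on the scaling, with 1203 risen and 1076 fallen genes under upper-quartile factors and 1153 and 1163 under library totals. Values marked log2 are fold changes of BCI over DMSO on that scale, and their error is the standard error (SE) of the fit. Risen genes had a median log2 fold change of 0.65 and fallen genes one of -0.55, with 0.02 over all genes tested. Fitted changes were at least 2-fold in 270 risen and 148 fallen genes, at least 4-fold in 68 and 14, and at least 8-fold in 27 and 3. Of these, 10 risen genes had no count in either DMSO library and 1 fallen gene had none in either BCI library, and their fitted folds are no bound. With these genes set against the floor of 3 counts per library the numbers were 269 and 147, 63 and 13, and 19 and 2. Of the 27 genes, 9 had a mean of at least 4 CPM. In all 2354 called genes the BCI and DMSO libraries at 4 h did not overlap. Over the 21908 genes tested they did not overlap in 6660 with BCI higher and 6253 with BCI lower. A lack of overlap therefore adds nothing to a call, and it was frequent among genes not called.

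The numbers of calls changed with the libraries that were fitted. Leaving out 1 library at a time left 648 (DMSO 1), 555 (DMSO 2), 574 (BCI 1) or 693 (BCI 2) called genes, and fitting the 4 h libraries alone called 5691 genes, 2343 of the 2354 among them. Calls of single genes named by the rule in the methods held in each of the 4 fits without a library unless said otherwise.

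**Figure D1:**
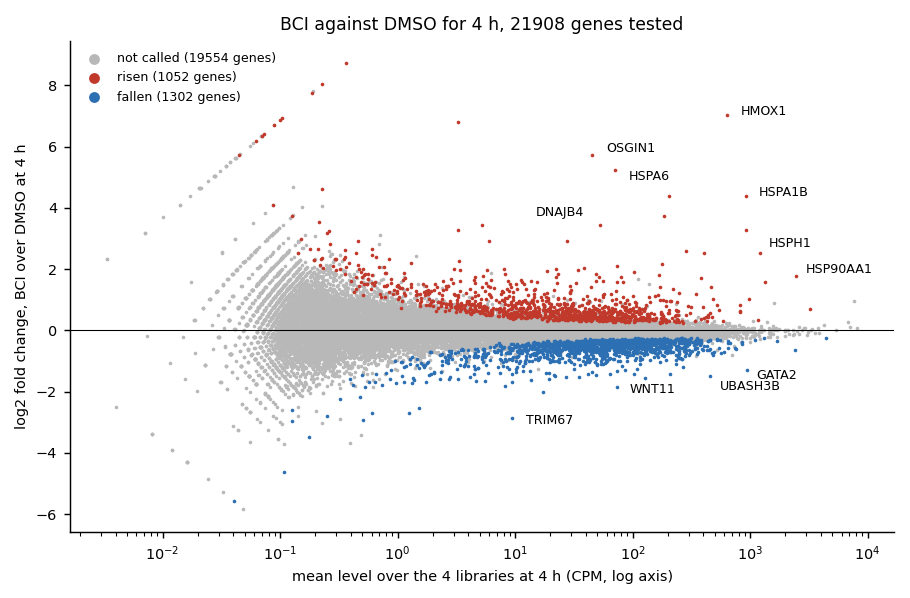
Each point is a gene; the x axis is the mean level of the 4 h libraries in CPM (log scale) and the y axis the log2 fold change of BCI over DMSO at 4 h, with called genes coloured by direction. Among genes averaging 4 CPM or more the steepest rise is HMOX1 at log2 7.05 and the steepest fall TRIM67 at log2 -2.85, and the diagonal streaks at low levels are genes with few counts.

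Abundant genes fell more often than they rose. Among genes over 256 CPM in DMSO libraries, 24 rose and 140 fell of 772, whereas among genes at 4 to 16 CPM, 245 rose and 150 fell of 3131. Risen protein-coding genes had a median of 23.6 CPM in DMSO and fallen ones 65 CPM. Under 1 CPM, 1.69% of genes were called, against 22.7% at 64 to 256 CPM.

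Transcripts of the main heat shock chaperones rose. In the HSP70 and HSP110 list 8 of 15 tested members rose and none fell, with a median log2 fold change of 0.84 against 0.02 over all genes, and 5 to 6 rose with any 1 library of the 4 left out. The summed level of that list was 19130 and 17560 CPM under BCI and 9160 and 9226 CPM under DMSO. Most of that sum was HSPA8, a member that was not called, at 10470 and 9689 CPM under BCI and 5162 and 5222 CPM under DMSO. HSPH1 (ENSG00000120694, chr13:31134974-31162388), an HSP110 protein that recharges HSP70 with ATP, stood at 2108 and 1995 CPM in BCI libraries and 360 and 348 CPM in DMSO libraries. The groups did not overlap, and both BCI libraries were several times above both DMSO libraries (log2 2.54, SE 0.0793, adjusted p = 6.9e-07, edgeR). HSPA4L, another HSP110 relative, had 62.7 and 61.6 CPM under BCI and 15.8 and 14.8 CPM under DMSO (log2 2.02, SE 0.0976, adjusted p = 6.8e-06).

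HSPA6 (ENSG00000173110, chr1:161524540-161526910), the strictly inducible HSP70 gene, had 164 and 112 CPM in BCI libraries and 3.16 and 4.08 CPM in DMSO libraries. Both BCI libraries were far above both DMSO libraries, with the first BCI library the higher (log2 5.25, SE 1.05, adjusted p = 0.013). Without any 1 of the 4 libraries the call was lost, at an adjusted p of up to 0.146. At 48 h the gene stood at 1.63 and 5.32 CPM under BCI and 1.19 and 22.8 CPM under DMSO, so 1 DMSO library spread widely there. HSPA1A had 449 and 323 CPM under BCI and 18.6 and 18.0 CPM under DMSO, and its near-identical copy HSPA1B had 1919 and 1579 CPM under BCI and 82.2 and 84.0 CPM under DMSO. The division of reads between these copies is uncertain, and HSPA1L (log2 2.07, called in 2 of the 4 fits without a library), which neighbours them, may share reads too.

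HSPA8, the constitutive HSP70 of all cells, was singled out after its values were seen. It had 10470 and 9689 CPM under BCI and 5162 and 5222 CPM under DMSO, without overlap and with close replicates, yet was not called in the fit of 8 libraries (log2 0.96, adjusted p = 0.17). In the fit of the 4 h libraries alone its adjusted p was 5.9e-11. At 48 h the libraries of each treatment lay far apart, at 2324 and 1016 CPM under BCI and 2230 and 989 CPM under DMSO, and that spread enters the test of the 4 h difference. The first library was the higher in both treatments there. With a replicate block over the 8 libraries HSPA8 was called at 4 h (edgeR adjusted p = 0.039).

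The HSP90 machine rose with its co-chaperones, at 13 risen and 1 fallen of 26 tested members and 11 to 12 risen when 1 library was left out. HSP90AA1 (ENSG00000080824, chr14:102080738-102139699), the inducible cytosolic HSP90, had 3851 and 3802 CPM under BCI and 1125 and 1119 CPM under DMSO. No library of either treatment came near the other treatment (log2 1.77, SE 0.064, adjusted p = 1.3e-06). CHORDC1, a zinc-binding HSP90 partner, had 260 and 261 CPM under BCI and 76.8 and 73.6 CPM under DMSO (log2 1.79, SE 0.0793, adjusted p = 4.3e-06). The constitutive HSP90AB1 rose less (log2 0.70, SE 0.117, adjusted p = 0.0054), and kept its call in 1 of the 4 fits without a library. Its partners STIP1, which bridges HSP70 and HSP90, AHSA1, which speeds the HSP90 ATPase, PTGES3 (p23) and PPID, an immunophilin, rose by log2 0.84, 0.91, 1.03 and 1.04, and their calls held without any 1 library.

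Among DNAJ co-chaperones, which deliver clients to HSP70, 8 rose and 2 fell of 34, and 5 rose without any 1 library. DNAJB4 (ENSG00000162616, chr1:77979175-78017964) had 101 and 94.6 CPM under BCI and 8.67 and 9.32 CPM under DMSO, a clear separation (log2 3.44, SE 0.163, adjusted p = 6.6e-06). DNAJA4 had 506 and 474 CPM under BCI and 77.4 and 86.0 CPM under DMSO (log2 2.58, SE 0.088, adjusted p = 1.0e-06). DNAJA1 and DNAJB6 rose less, by log2 1.40 and 1.13. The mitochondrial chaperonin pair HSPD1 (HSP60) and HSPE1 (HSP10), which share 1 promoter region, rose by log2 1.03 and 1.25, while of the 16 chaperonin and prefoldin genes tested 3 rose and PFDN2 fell, or 2 and none without any 1 library.

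Small heat shock, BAG and HSF genes gave 5 risen and 1 fallen of 17, with 3 to 5 risen and none fallen without any 1 library. SERPINH1 (HSP47), a collagen chaperone of the endoplasmic reticulum, had 775 and 600 CPM under BCI and 119 and 120 CPM under DMSO (log2 2.53, SE 0.123, adjusted p = 6.8e-06). Both BCI libraries were far above DMSO, with the first the higher. HIKESHI, which carries HSP70 into the nucleus, rose by log2 0.78, and HSPB1 (HSP27) by log2 0.97, with HSPB1 called in 2 of the 4 fits without a library. HSF1 itself, looked at after its values were seen, stood at 305 and 292 CPM under BCI and 342 and 352 CPM under DMSO and was not called (adjusted p = 0.090, and 0.0025 among the 4 h libraries alone).

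The promoters of several of these genes are shown because they hold the letters bound by HSF1 or NRF2 in textbook descriptions. Each stretch is from RefSeq promoters (GRCh38.p14), given 5′ to 3′ on the strand of the gene, with the matched letters in capitals. For the heat shock element the letters searched were 3 alternating units, GAANNTTCNNGAA or TTCNNGAANNTTC, and for the antioxidant response core TGACNNNGC or its reverse complement GCNNNGTCA, where N is any base.
HSPA6, chr1:161524451-161524493, plus strand: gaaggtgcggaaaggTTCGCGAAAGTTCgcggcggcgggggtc
HSP90AA1, chr14:102087105-102087147, minus strand: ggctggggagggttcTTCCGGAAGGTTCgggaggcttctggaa
HSP90AB1, chr6:44247816-44247858, plus strand: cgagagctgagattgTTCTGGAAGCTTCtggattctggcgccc
CHORDC1, chr11:90223072-90223124, minus strand: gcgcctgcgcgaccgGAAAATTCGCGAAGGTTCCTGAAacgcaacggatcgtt
HSPD1, chr2:197500053-197500090, minus strand: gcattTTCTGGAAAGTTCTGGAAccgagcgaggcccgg
GCLM, chr1:93909441-93909479, minus strand: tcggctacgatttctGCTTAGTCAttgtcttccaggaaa
TXNRD1, chr12:104286915-104286953, plus strand: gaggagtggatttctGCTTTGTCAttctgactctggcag

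In the first 5 the capitals are heat shock elements, and in GCLM and TXNRD1 the antioxidant response core. CHORDC1 and HSPD1 hold runs of overlapping elements of 23 and 18 bases, against 13 bases in HSPA6, HSP90AA1 and HSP90AB1. The HSPA6 element lies 74 to 62 bases before the start and the GCLM core 34 to 26 bases before it. These matches are descriptions of letters and not evidence of binding.

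Over the 300 bases from 250 before to 50 after the start, the 3-unit element was in 0.49% of all 35116 RefSeq promoters, searched on both strands, and in 0.313% of the 12134 promoters of tested genes. It was in 1.45% of 758 promoters of risen genes (11 promoters), 4.52% of 155 promoters of genes risen at least 2-fold (7 promoters) and 0.0995% of 1005 promoters of fallen genes (1 promoter). Among the chaperone lists it was in 15.4% of 13 HSP70 and HSP110, 16.7% of 18 HSP90, 6.25% of 32 DNAJ and 7.14% of 14 chaperonin promoters. In the 13 small heat shock, BAG and HSF promoters the share was 0%. The shorter pair, GAANNTTC or TTCNNGAA, which is contained in the 3-unit form, was in 46.2% of 13 HSP70 and HSP110 promoters and 33.3% of 18 HSP90 promoters, against 10.4% of tested genes. The antioxidant response core was in 27.3% of 33 NRF2 list promoters and 17.8% of risen genes, against 14.7% of tested genes. Other stress lists held it too, at 27.8% of 18 HSP90 promoters and 23.1% of 13 small heat shock, BAG and HSF promoters. HMOX1 had no entry. The 3-unit element was absent from the promoters of HSPH1, HSPA4L, HSPA1A, HSPA1B, DNAJA4, DNAJB4 and SERPINH1. Likewise OSGIN1 and NQO1 held no antioxidant response core, while HSPA6 held 1 besides its heat shock element.

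**Figure D2:**
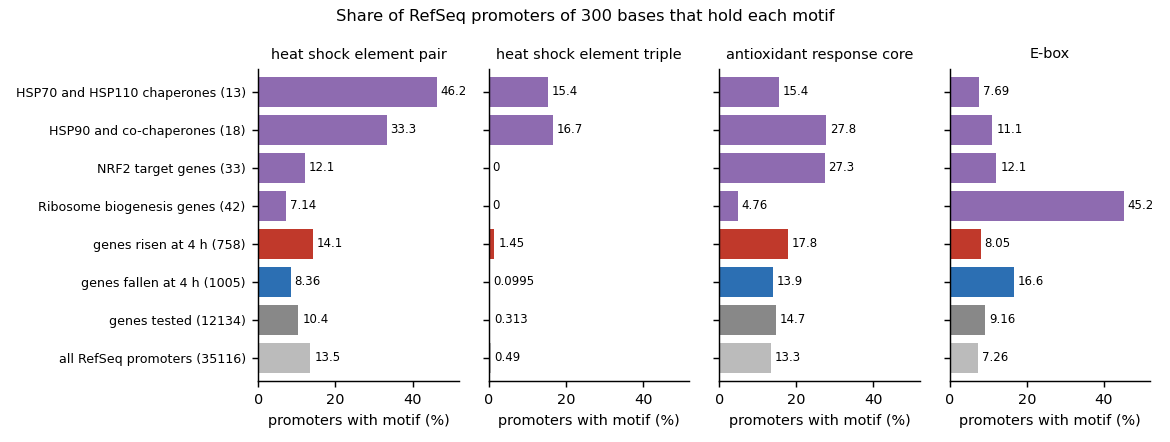
Bars give the percentage of promoters (300 bases each) that hold each motif, for the groups of genes named on the axis. The 3-unit heat shock element is in 1.45% of genes risen at 4 h and 0.313% of tested genes, and the E-box in 45.2% of ribosome biogenesis promoters and 9.16% of tested genes.

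NRF2 target genes rose next to the chaperones: 17 of 43 tested members rose and 1 fell, with a median log2 fold change of 0.47 and 11 to 14 risen without any 1 library. Their summed level was 9997 and 9329 CPM under BCI and 5537 and 5549 CPM under DMSO. GCLM (ENSG00000023909, chr1:93885205-93909456), the modifier subunit of the enzyme that limits glutathione synthesis, had 285 and 293 CPM under BCI and 64 and 64.6 CPM under DMSO. The groups were well apart and replicates nearly equal (log2 2.17, SE 0.113, adjusted p = 1.2e-05). GCLC, the catalytic subunit, was chosen for the contrast after its values were seen and was not called, at 68.3 and 66.1 CPM under BCI and 57.2 and 56.1 CPM under DMSO (adjusted p = 0.27, and 0.0040 among the 4 h libraries alone).

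SLC7A11, the cystine importer that feeds glutathione synthesis, had 123 and 117 CPM under BCI and 28.4 and 28.1 CPM under DMSO (log2 2.09, SE 0.08, adjusted p = 1.6e-06). TXNRD1, the cytosolic thioredoxin reductase, had 604 and 561 CPM under BCI and 182 and 171 CPM under DMSO (log2 1.72, SE 0.076, adjusted p = 4.3e-06). The quinone reductase NQO1 was low but separate, at 9.62 and 8.91 CPM under BCI and 2.29 and 2.48 CPM under DMSO (log2 1.96, SE 0.244, adjusted p = 0.0013). OSGIN1 had 97.4 and 81.0 CPM under BCI and 1.93 and 1.44 CPM under DMSO. NFE2L2, which encodes NRF2 and was looked at after its values were seen, stood at 58.1 and 60.7 CPM under BCI and 55.8 and 53.3 CPM under DMSO, without a call.

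HMOX1 (ENSG00000100292, chr22:35380361-35394214), which splits haem and frees its iron, had 1356 and 1191 CPM under BCI and 10.0 and 9.27 CPM under DMSO, the steepest rise among genes averaging 4 CPM or more. HMOX2, its constitutive relative, fell (18.2 and 15.5 CPM under BCI, 28.8 and 30.1 CPM under DMSO; log2 -0.80, SE 0.11, adjusted p = 0.0019). SLC48A1, which moves haem out of lysosomes, rose by log2 1.29 (SE 0.131, adjusted p = 4.5e-04) and the ferritin heavy chain FTH1 by log2 0.62 (SE 0.0979, adjusted p = 0.0041), with FTH1 called in 1 of the 4 fits without a library. Across the iron and haem list 3 rose and 1 fell of 25. TFRC, the transferrin receptor, and FTL, the ferritin light chain, were chosen after their values were seen: TFRC had 497 and 514 CPM under BCI and 867 and 911 CPM under DMSO, and FTL 2112 and 2001 CPM under BCI and 1122 and 1098 CPM under DMSO. The groups did not overlap in either gene, but neither was called (adjusted p = 0.14 and 0.15). Among the 4 h libraries alone both were, at an adjusted p of 4.6e-10 for TFRC and 1.6e-10 for FTL (edgeR). With a replicate block over the 8 libraries both were called too (edgeR adjusted p = 0.040 for TFRC and 0.045 for FTL).

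NMRAL2P, a transcribed relative of NMRAL1, and LUCAT1, a long non-coding RNA, were also picked out after their values were seen. NMRAL2P had 6.88 and 6.12 CPM under BCI and 0.0973 and 0.0162 CPM under DMSO (adjusted p = 0.0030). LUCAT1 had 0.567 and 0.893 CPM under BCI and no count in either DMSO library, which puts it 15 times above the floor of 0.0485 CPM, set at 3 counts per library, or 7.52 times above if a fragment stands for 2 counts.

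Called shares were 37.9% and 21.2% in the 2 lists of protein disposal, against 10.7% of all genes and 15.1% of protein-coding genes. Their called members rose without any fall: 11 of 29 ubiquitin and autophagy genes and 7 of 33 proteasome subunits, with medians of log2 0.31 and 0.18. Without any 1 library 3 to 5 and 1 to 2 of them passed. ZFAND2A (AIRAP), which binds the proteasome under arsenite, had 57.5 and 40.6 CPM under BCI and 6.65 and 6.36 CPM under DMSO (log2 2.91, SE 0.175, adjusted p = 2.7e-05). GABARAPL1, an autophagosome membrane protein, had 35.4 and 31.9 CPM under BCI and 11.5 and 11.6 CPM under DMSO (log2 1.54, SE 0.21, adjusted p = 0.0019). PSMC2, a proteasome ATPase, rose by log2 0.70 and held in each fit without a library, while the other called subunits named by the rule rose by log2 0.37 to 0.46 and did not hold in all 4.

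ATF4 response genes gave 8 rises and no fall of 31, of which 1 to 5 passed without a library, and unfolded protein response genes 4 rises of 25, of which 1 to 2 passed. PPP1R15A, the phosphatase subunit that restores translation, had 324 and 275 CPM under BCI and 186 and 196 CPM under DMSO (log2 0.65, SE 0.0933, adjusted p = 0.0025, called in 3 of the 4 fits without a library). HERPUD1, an endoplasmic reticulum membrane protein of protein disposal, had 150 and 132 CPM under BCI and 84.2 and 86.8 CPM under DMSO (log2 0.72, SE 0.091, adjusted p = 0.0014). Both groups were separate in each gene. HSPA5 (BiP), the central chaperone of the endoplasmic reticulum and chosen here after its values were seen, was not called, at 1349 and 1249 CPM under BCI and 1171 and 1170 CPM under DMSO (adjusted p = 0.48, and 0.034 among the 4 h libraries alone).

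**Figure D3:**
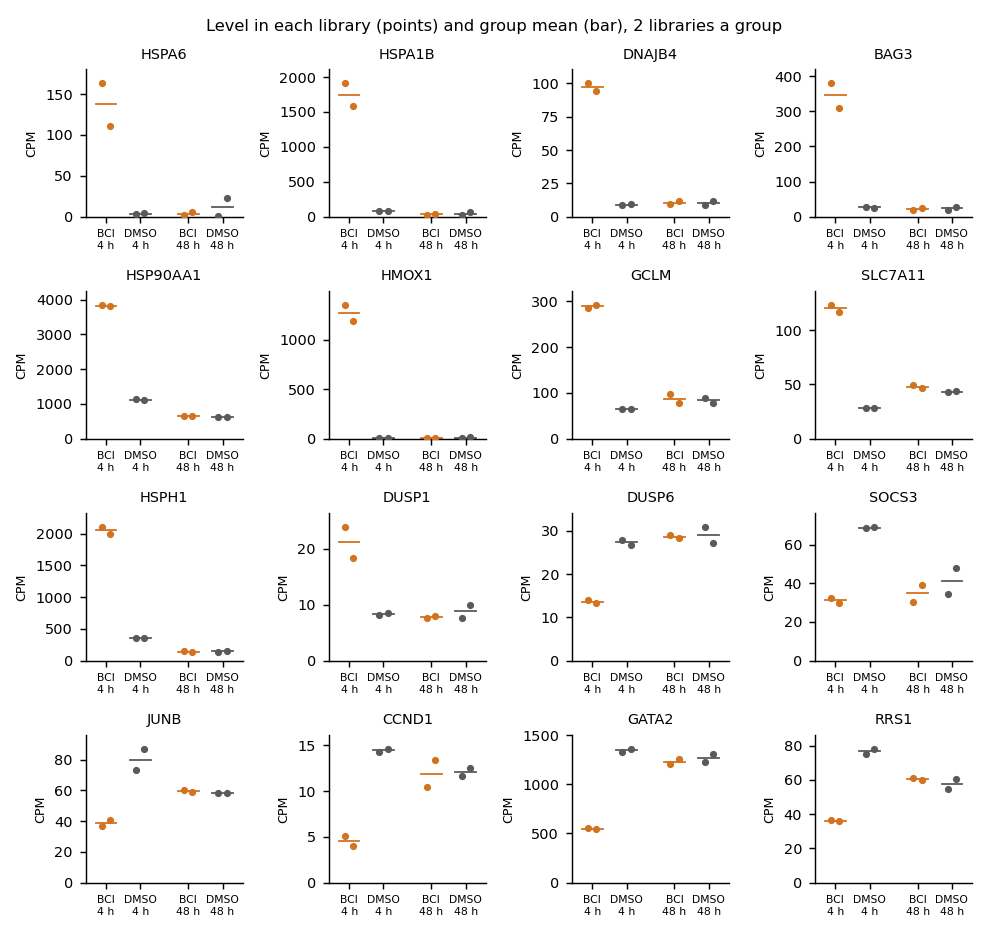
Points give the level of each library in CPM (linear axis starting at 0) and bars the group mean for 16 genes, with 2 libraries in each of the BCI and DMSO groups at 4 h and 48 h. At 4 h both BCI points of GCLM lie at 285 and 293 CPM, above DMSO, and both BCI points of GATA2 at 551 and 549 CPM, below DMSO, while the groups at 48 h lie close together for these genes.

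The phosphatase genes themselves moved in both directions. Of 10 MAP kinase phosphatases tested 2 rose, 3 fell and 5 did not pass, and without any 1 library 1 to 2 rose and 3 fell. DUSP6 (ENSG00000139318, chr12:89347232-89353271) had 14 and 13.3 CPM under BCI and 28.0 and 26.8 CPM under DMSO, with both BCI libraries well below both DMSO libraries (log2 -1.003, SE 0.0999, adjusted p = 4.1e-04). DUSP1 (ENSG00000120129, chr5:172768090-172771195) had 24.0 and 18.4 CPM under BCI and 8.17 and 8.54 CPM under DMSO, all BCI values above all DMSO values (log2 1.34, SE 0.163, adjusted p = 0.0012). DUSP7, an ERK phosphatase of the same family as DUSP6, had 94.4 and 101 CPM under BCI and 164 and 169 CPM under DMSO (log2 -0.77, SE 0.092, adjusted p = 0.0011). DUSP2, a nuclear phosphatase, had 6.70 and 6.79 CPM under BCI and 13.1 and 11.6 CPM under DMSO (log2 -0.88, SE 0.115, adjusted p = 0.0016). DUSP16, which acts on JNK and p38, rose (15.3 and 15.6 CPM under BCI, 7.18 and 8.80 CPM under DMSO; log2 0.95, SE 0.159, adjusted p = 0.0055) and was called in 1 of the 4 fits without a library.

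The other 5 phosphatases did not pass. DUSP4, another ERK phosphatase, had 4.22 and 3.28 CPM under BCI and 3.66 and 4.24 CPM under DMSO, with overlapping groups (log2 -0.08, SE 0.197, adjusted p = 0.87). DUSP5, DUSP8, DUSP9 and DUSP10 had log2 fold changes of 0.36, 0.46, -0.22 and 0.26 with adjusted p of 0.17, 0.63, 0.67 and 0.30. Among the 4 h libraries alone DUSP5, DUSP8 and DUSP10 passed as rises (edgeR adjusted p = 0.0023, 0.031 and 0.026), which gives 5 risen and 3 fallen of the 10.

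Of 11 Sprouty, SPRED and related inhibitors of ERK, SPRY1 (log2 -0.82, SE 0.143, adjusted p = 0.0069) and SPRED1 (log2 -0.44, SE 0.079, adjusted p = 0.0080) fell and none rose, and both calls were lost in each fit without a library. SPRY4 had 4 and 0 counts in BCI libraries and 4 and 10 in DMSO libraries and was not tested. Of the Sprouty, SPRED and related genes tested 18.2% were called, against 10.7% of all genes and 15.1% of protein-coding genes. Of 17 ETS factors and ERK transcription targets 5 fell and none rose (1 fell without any 1 library), led by ID1, an inhibitor of helix-loop-helix factors (28.2 and 26.1 CPM under BCI, 55.6 and 53.8 CPM under DMSO; log2 -1.01, SE 0.123, adjusted p = 0.0012). RSK, MSK and MAP kinases gave 2 falls of 21, or 9.52% against the 10.7% of all genes, in RPS6KA1 (log2 -0.64), called in each fit without a library, and MAP2K3 (log2 -0.45), called in none of them.

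Immediate-early genes split, at 6 risen and 7 fallen of 38, or 0 to 3 risen and 3 fallen without any 1 library. JUNB (ENSG00000171223, chr19:12791496-12793315), an AP-1 subunit, had 37.0 and 40.8 CPM under BCI and 72.9 and 87.1 CPM under DMSO, without overlap (log2 -1.04, SE 0.1, adjusted p = 3.5e-04). ZFP36L2, which destabilises AU-rich transcripts, had 107 and 117 CPM under BCI and 229 and 227 CPM under DMSO (log2 -1.02, SE 0.0825, adjusted p = 1.5e-04), and the pseudokinase TRIB1 fell by log2 -0.74. ATF3 rose, at 25.1 and 19.2 CPM under BCI and 12.1 and 12.4 CPM under DMSO (log2 0.86, SE 0.138, adjusted p = 0.0044), as did IER5 (log2 0.79, SE 0.114, adjusted p = 0.0026), and without a library ATF3 was called in 1 fit and IER5 in 3 fits of the 4. EGR1, the classic ERK-induced zinc finger gene, did not pass, at 12.5 and 10.7 CPM under BCI and 6.91 and 8.79 CPM under DMSO (log2 0.56, adjusted p = 0.12). Among the 4 h libraries alone it passed as a rise (adjusted p = 0.0023).

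JUN and FOSB were chosen after their values were seen. JUN had 186 and 156 CPM under BCI and 55.0 and 52.2 CPM under DMSO, a wide separation that narrowly missed the threshold (log2 1.67, adjusted p = 0.065) and had an adjusted p of 5.6e-12 among the 4 h libraries alone. FOSB had 11.2 and 8.28 CPM under BCI and 2.29 and 3.01 CPM under DMSO (adjusted p = 0.057, and 9.8e-08 among the 4 h libraries alone). With a replicate block over the 8 libraries both genes were called (edgeR adjusted p = 0.018 for JUN and 0.012 for FOSB). Both BCI libraries were above both DMSO libraries in each of these, opposite to JUNB.

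Of 32 JAK-STAT signalling and feedback genes tested, 8 fell, 1 rose and 23 did not pass, with 5 to 6 falls without any 1 library. SOCS3 (ENSG00000184557, chr17:78356778-78360077), which blocks JAK kinases, had 32.5 and 29.8 CPM under BCI and 68.5 and 69.4 CPM under DMSO, with BCI libraries well below (log2 -1.15, SE 0.164, adjusted p = 0.0024). OSM, the cytokine oncostatin M, was low at 1.25 and 1.04 CPM under BCI and 3.08 and 3.87 CPM under DMSO (log2 -1.60, SE 0.215, adjusted p = 0.0018). PIM2, a survival kinase induced by STAT5, had 170 and 178 CPM under BCI and 304 and 330 CPM under DMSO (log2 -0.87, SE 0.0889, adjusted p = 4.8e-04).

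PIM1, its relative, had 433 and 419 CPM under BCI and 704 and 704 CPM under DMSO (log2 -0.72, SE 0.137, adjusted p = 0.0099), and CISH, an inhibitor of STAT5 signalling, had 52.5 and 47.3 CPM under BCI and 65.1 and 72.9 CPM under DMSO (log2 -0.47, SE 0.0989, adjusted p = 0.017). Both calls were lost in each fit without a library. STAT5A fell (360 and 359 CPM under BCI, 544 and 555 CPM under DMSO; log2 -0.61, SE 0.0672, adjusted p = 6.6e-04). JAK2 did not pass, at 171 and 191 CPM under BCI and 154 and 147 CPM under DMSO (log2 0.27, adjusted p = 0.11, and 0.0015 among the 4 h libraries alone). IL6ST (gp130), a shared cytokine receptor chain, was the 1 member that rose (log2 0.60, SE 0.146, adjusted p = 0.031) and was not called in any fit without a library.

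NF-kappaB and inflammatory genes gave 1 rise and 5 falls of 25 tested, or 0 rises and 3 to 4 falls without any 1 library. ICAM1, an adhesion molecule, had 12.2 and 10.8 CPM under BCI and 29.1 and 33.3 CPM under DMSO (log2 -1.44, SE 0.116, adjusted p = 1.4e-04). BCL3, a nuclear IkB protein, had 11 and 10.8 CPM under BCI and 27.7 and 28.9 CPM under DMSO (log2 -1.38, SE 0.144, adjusted p = 5.4e-04). IL1B fell by log2 -0.59 and RELA, the p65 subunit, by log2 -0.29, while TNFAIP3 (A20), a brake on the pathway, rose by log2 0.40, and the calls of RELA and TNFAIP3 were lost in each fit without a library. Interferon-stimulated genes gave 2 rises and 1 fall of 28, a share of 10.7% that equals that of all genes, with BST2 (tetherin) at 4.11 and 3.79 CPM under BCI and 1.23 and 1.68 CPM under DMSO (log2 1.44, SE 0.201, adjusted p = 0.0021).

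Ribosome biogenesis had the highest share of called members of the lists, 84.0%: 42 of 50 members fell, none rose, and 18 to 25 fell with any 1 library left out. The median log2 fold change was -0.53, against 0.02 over all genes, and the summed level was 8334 and 8429 CPM under BCI and 11340 and 11400 CPM under DMSO. RRS1, an assembly factor of the large ribosomal subunit, had 36.3 and 36.0 CPM under BCI and 75.3 and 78.3 CPM under DMSO (log2 -1.09, SE 0.0818, adjusted p = 1.1e-04). MYBBP1A, a nucleolar regulator of ribosomal RNA transcription, had 182 and 180 CPM under BCI and 338 and 356 CPM under DMSO (log2 -0.94, SE 0.0891, adjusted p = 3.4e-04). NOP16 and URB2, which act in the large subunit precursor, fell by log2 -0.98 and -0.91, and both calls held without any 1 library.

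The abundant nucleolar protein NCL had 1507 and 1511 CPM under BCI and 1912 and 1908 CPM under DMSO, a smaller fall (log2 -0.34, SE 0.0821, adjusted p = 0.030) that was not called in any fit without a library. Of cytosolic ribosomal protein genes 0 of 56 were called, with a median log2 fold change of 0.02. The E-box CACGTG, the palindrome bound by MYC and its partners, was searched after the list's values were seen. It was in 45.2% of 42 ribosome biogenesis promoters (19 promoters) and 16.6% of fallen genes (167 of 1005), against 8.05% of risen genes, 9.16% of tested genes and 7.26% of all RefSeq promoters.

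MYC itself had 603 and 607 CPM under BCI and 891 and 901 CPM under DMSO (log2 -0.57, SE 0.145, adjusted p = 0.037), below DMSO in both libraries but not called without any 1 of the 4. MXD1, which competes with MYC for its partner MAX, rose (57.6 and 53.5 CPM under BCI, 26.7 and 24.4 CPM under DMSO; log2 1.12, SE 0.156, adjusted p = 0.0021), as did its relative MXD4 (log2 1.13, SE 0.203, adjusted p = 0.0078). MLX, another partner protein, fell by log2 -0.68 and MNT by log2 -0.36, and the calls of MXD4 and MNT were lost in each fit without a library. TFAP4, an E-box factor outside the list, had 17 and 19.4 CPM under BCI and 53.1 and 51.6 CPM under DMSO (log2 -1.52, SE 0.106, adjusted p = 6.7e-05).

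Cyclins, CDKs and their inhibitors gave 2 rises and 9 falls of 23, or 1 to 2 rises and 4 to 5 falls without any 1 library. CCND1 (ENSG00000110092, chr11:69641087-69654474), a G1 cyclin, had 5.07 and 3.97 CPM under BCI and 14.3 and 14.6 CPM under DMSO. CCND2, the more abundantly counted D-type cyclin here, had 174 and 192 CPM under BCI and 311 and 309 CPM under DMSO (log2 -0.76, SE 0.0776, adjusted p = 4.6e-04). E2F1, the transcription factor of S-phase entry, fell by log2 -0.86 (SE 0.117, adjusted p = 0.0019), and CDKN1A (p21) rose by log2 1.18 (SE 0.195, adjusted p = 0.0050), with CDKN1A called in 1 of the 4 fits without a library.

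DNA replication genes gave 5 falls of 38 with a median of log2 -0.36, led by MCM4 (log2 -0.73, SE 0.132, adjusted p = 0.0082), and none passed without a library. The called share of replication genes was 13.2%, against 10.7% of all genes tested and 15.1% of protein-coding genes. Mitosis genes gave 1 rise of 33 and no fall, or 3.03%. Sterol synthesis genes gave 1 rise and 11 falls of 25 with a median of log2 -0.41, and 2 to 3 falls without any 1 library. DHCR7, a late enzyme of cholesterol synthesis, had 113 and 107 CPM under BCI and 181 and 179 CPM under DMSO (log2 -0.71, SE 0.0952, adjusted p = 0.0018). FASN, the fatty acid synthase, had 1935 and 1809 CPM under BCI and 2883 and 2940 CPM under DMSO (log2 -0.64, SE 0.0891, adjusted p = 0.0021).

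**Figure D4:**
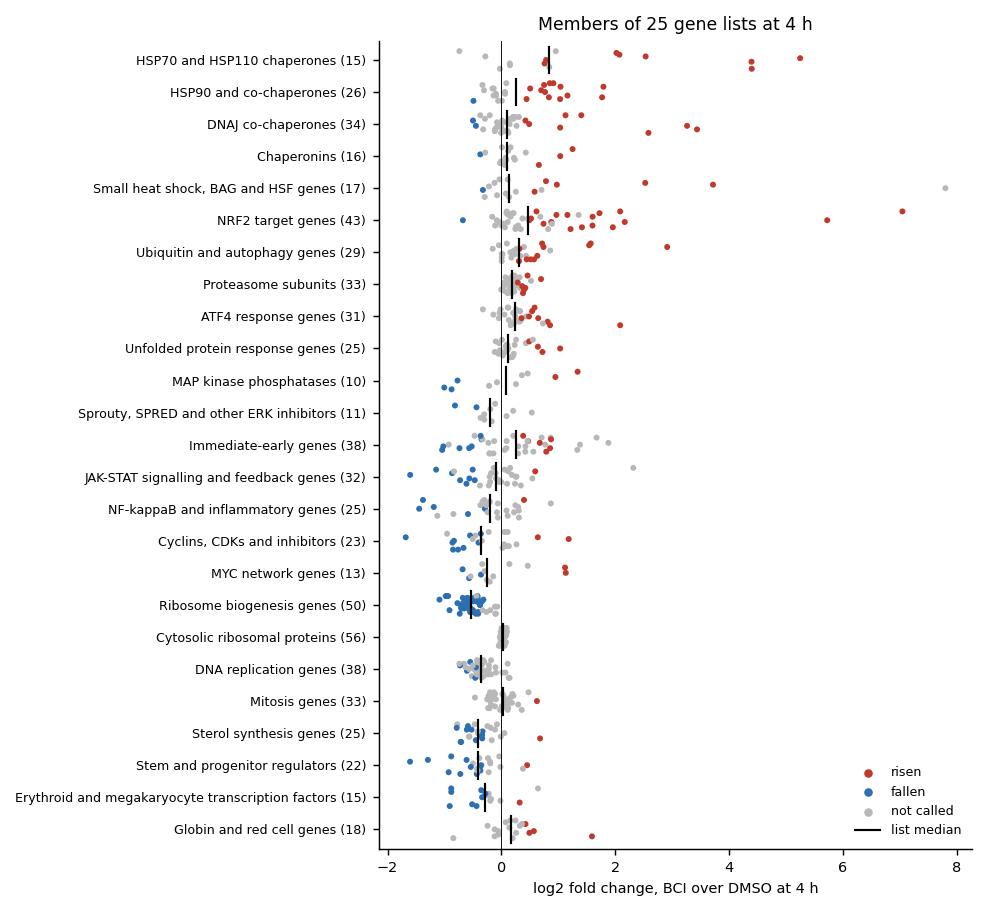
Each point is a tested member of a gene list (number tested in brackets), the x axis is its log2 fold change of BCI over DMSO at 4 h, the colour its call, and the black bar the median of the list. Of ribosome biogenesis genes 42 of 50 are marked as fallen, and of NRF2 target genes 17 of 43 as risen.

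Regulators of blood stem and progenitor cells fell in 10 of 22 tested members and rose in 1, and erythroid and megakaryocyte transcription factors fell in 8 of 15 and rose in 1. Without any 1 library 3 to 4 and 2 to 4 fell. Here, as for every list in this bulk RNA, fewer cells of a kind and less RNA per cell cannot be told apart. GATA2 (ENSG00000179348, chr3:128479427-128493185), a master factor of blood progenitors, had 551 and 549 CPM under BCI and 1328 and 1364 CPM under DMSO. The groups were far apart and replicates close (log2 -1.29, SE 0.0691, adjusted p = 1.3e-05). KIT, the stem cell factor receptor, had 9.77 and 9.60 CPM under BCI and 30.8 and 28.1 CPM under DMSO.

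HES1, a Notch-induced repressor, fell (16.8 and 16.1 CPM under BCI, 30.0 and 32.4 CPM under DMSO; log2 -0.93, SE 0.0889, adjusted p = 3.5e-04). KLF1, the erythroid activator of beta-globin, had 108 and 108 CPM under BCI and 196 and 201 CPM under DMSO (log2 -0.88, SE 0.129, adjusted p = 0.0028), called in 3 of the 4 fits without a library. ZFPM1 (FOG1), the cofactor of GATA1, fell by log2 -0.91 (SE 0.124, adjusted p = 0.0019). GATA1 did not pass, at 244 and 241 CPM under BCI and 278 and 288 CPM under DMSO (adjusted p = 0.075).

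Globin and red cell genes gave 4 rises and no fall of 18, of which 1 to 2 rose without any 1 library. RHAG, EPB42 and GYPE, red cell membrane genes, rose by log2 0.57, 0.49 and 0.42, calls that were lost in 3 fits (RHAG) or all 4 fits (EPB42 and GYPE) without a library. Megakaryocyte and platelet genes gave 2 rises and 2 falls of 19. THBS1, a platelet granule protein, rose, at 59.4 and 49.9 CPM under BCI and 27.5 and 31.6 CPM under DMSO (log2 0.89, SE 0.116, edgeR adjusted p = 0.0016). ANGPT1 and GP1BA fell by log2 -0.76 and -0.62, and neither call held in any fit without a library. Of red cell genes 22.2% and of platelet genes 21.1% were called, against 10.7% of all genes and 15.1% of protein-coding genes.

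Several of the deepest falls lay outside the lists. WNT11, a secreted WNT ligand, had 30.6 and 32.4 CPM under BCI and 115 and 114 CPM under DMSO (log2 -1.86, SE 0.102, adjusted p = 1.4e-05). UBASH3B (STS-1), a phosphatase that dampens tyrosine kinase signalling, had 237 and 245 CPM under BCI and 678 and 679 CPM under DMSO (log2 -1.50, SE 0.069, adjusted p = 5.7e-06). PRF1 (perforin), the pore-forming protein of cytotoxic cells, had 6.84 and 6.82 CPM under BCI and 27.3 and 27.6 CPM under DMSO (log2 -2.01, SE 0.31, adjusted p = 0.0035), called in 2 of the 4 fits without a library. In each of these the DMSO libraries were several times above the BCI libraries.

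TRIM67, a ubiquitin ligase, EPHA1, an ephrin receptor, LFNG, which modifies Notch, BHLHE40, a repressor of the circadian clock, and GP5, a platelet glycoprotein, fell by log2 -2.85, -1.81, -1.62, -1.51 and -1.47, and their calls held without any 1 library. The long non-coding RNA FAM30A had 53.2 and 57.5 CPM under BCI and 147 and 152 CPM under DMSO (log2 -1.44, SE 0.0778, adjusted p = 1.4e-05). Rises outside the lists included IL7R, the interleukin-7 receptor, at 55.9 and 52.3 CPM under BCI and 13.7 and 14.1 CPM under DMSO (log2 1.96, SE 0.13, adjusted p = 5.0e-05), and HTRA3, a serine protease, at 9.41 and 9.66 CPM under BCI and 0.665 and 1.08 CPM under DMSO (log2 3.44, SE 0.321, adjusted p = 3.1e-04).

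In the remaining lists the counts without any 1 library were 0 to 2 in each direction. No member was called among 13 mitochondrially encoded genes and 31 replication-dependent histone genes. BCL2 family genes gave 1 rise and 2 falls of 17, p53 target genes 3 and 4 of 24, hypoxia and glycolysis genes 4 and 4 of 30, splicing factors 0 and 3 of 30, actin and SRF target genes 2 and 3 of 18, small nucleolar RNA host genes 1 and 4 of 23, and metallothionein and zinc genes 1 and 1 of 13. In that order the called shares were 17.6%, 29.2%, 26.7%, 10.0%, 27.8%, 21.7% and 15.4%, against 10.7% of all genes and 15.1% of protein-coding genes. Within the hypoxia list P4HA1, a collagen prolyl hydroxylase, rose by log2 0.87 and the hexokinase HK2 fell by log2 -0.81, the HK2 call holding in 3 of the 4 fits without a library. ACTB, beta-actin, had 4146 and 3919 CPM under BCI and 4840 and 4840 CPM under DMSO (log2 -0.26, SE 0.068, adjusted p = 0.039), a call lost in each fit without a library.

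By class of gene, 903 protein-coding genes rose and 1255 fell of 14285 tested, 87 long non-coding RNAs rose and 29 fell of 3442, and 62 pseudogenes rose and 17 fell of 3838. Of the 62 risen pseudogenes 38 have a named parent gene in the table, and for 24 of these the parent rose too, as with DNAJB1P1 (log2 2.90). Parents were matched by symbol alone. The copy HSP90AA4P also rose (log2 2.00) but was matched to no parent that way, so the 38 and 24 may be too low. Reads of such copies may come from the parent, so their values are uncertain. Of the 87 risen long non-coding RNAs 12 overlap a coding gene with the same call, and the strand setting of the counting is not given in the sources used here.

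Risen and fallen coding genes differed in composition. GC content was taken from the longest transcript of each gene. Its median was 44.1% for risen and 54.6% for fallen genes, against 49% for all coding genes tested. The median gene span was 48.4 kb for risen and 23 kb for fallen genes, against 30.9 kb. The part of GC content and length in the calls was not tested beyond a refit that corrected for both in each library, which called 2372 genes, 1929 of them among the 2354.

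The response at 4 h was compared with that at 48 h to see which of it remained. At 48 h no gene passed the threshold between BCI and DMSO (edgeR, 316 genes at an unadjusted p under 0.05, and 0 by DESeq2). The test of the difference, the 48 h response minus the 4 h response, called 757 genes, 3.46% of those tested, and 756 of these were called at 4 h. It was positive for 456 genes and negative for 301, or 60.2% positive. That split depended on the scaling, with 47.8% positive under upper-quartile factors (340 positive and 372 negative) and 52.1% under library totals. Without 1 library of the 4 h groups the test called 138 (DMSO 1), 88 (DMSO 2), 110 (BCI 1) or 129 (BCI 2) genes, without DMSO 1 at 48 h 1705 and without BCI 1 at 48 h 436. Replicates at 48 h were further apart, with a median SD of 0.158 for BCI and 0.185 for DMSO on the log2 scale, against 0.107 for BCI and 0.0928 for DMSO at 4 h.

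Of the 2354 genes called at 4 h, 2347 had a 48 h response of at most 0.5 times that at 4 h. These genes were chosen by their 4 h values, so a smaller value at 48 h is in part built in. The difference between the times passed its test in 756 of them, and that test uses the 4 h values too. HSPH1 had log2 fold changes of -0.04 at 48 h and 2.54 at 4 h. GCLM had 0.06 at 48 h and 2.17 at 4 h, and GATA2 had -0.05 at 48 h and -1.29 at 4 h. The list with most members whose response differed between the times was ribosome biogenesis, at 30 of 50, followed by NRF2 target genes at 14 of 43 and HSP90 genes at 11 of 26.

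**Figure D5:**
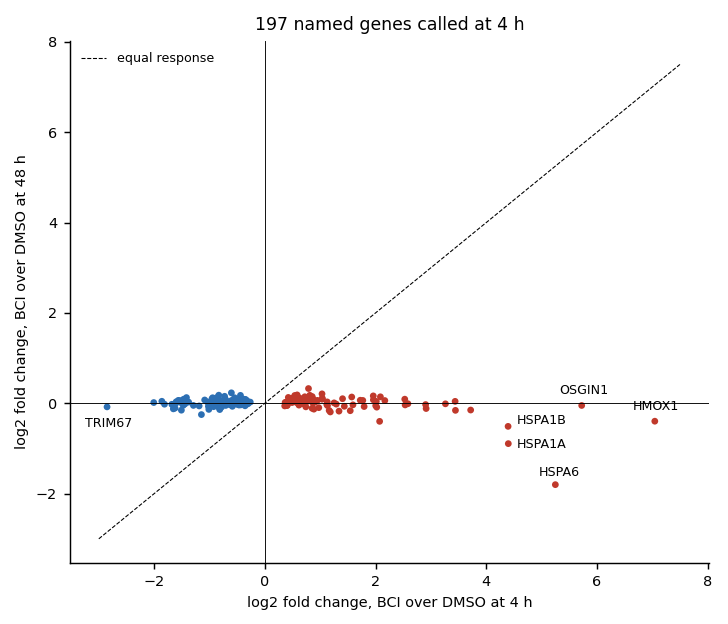
Each point is 1 of the 197 genes called at 4 h that the naming rule covers; the x axis is its log2 fold change of BCI over DMSO at 4 h and the y axis that at 48 h. Most points lie along the horizontal line of no change at 48 h, with HMOX1 at -0.40 on the y axis (48 h) and 7.05 on the x axis (4 h).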

How the data were processed

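HEL cells received BCI or DMSO in duplicate, and total RNA (RNeasy kit, DNase step) was sequenced on a NovaSeq 6000, per the labels' protocols. Reads were aligned with STAR 2.5.1a to GRCh38, per the submitters' processing notes, which also name bcl2fastq and edgeR. The authors deposited raw counts per gene, per the labels. For the library kit, annotation release, counting program and strand setting, the entry is: not given in the sources used here. Of the values 1 to 20 in a library, 68.1 to 70.6% were even, so each fragment was probably counted as 2 mates, which would double the floor. Intervals and floors cover counting error only.

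Libraries were assigned to groups from the labels and column headings. Columns headed 24h belong to samples labelled 48 h, and the labels were followed. Of 55209 lines, 116 were repeats of a gene with identical counts and were dropped, leaving 55093 genes. The main test used edgeR 4.0.16 (R 4.3.3): filterByExpr by group, TMM, and 1 quasi-likelihood model of the 8 libraries of the BCI table without a replicate block, with 4 residual degrees of freedom. Genes were called at a Benjamini-Hochberg adjusted p under 0.05, and SE was taken as the size of the log2 fold change divided by the square root of F. The code was tested on simulated data. Positions are those of GENCODE 29, and promoters are from RefSeq (GRCh38.p14).

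The 42 gene lists, the comparison and its members were chosen with earlier results of these data known. The naming rule covers 11 followed genes, the 20 largest log2 rises and falls among called genes averaging 4 CPM or more with no overlap between groups, up to 6 called members of each list by size of change, the 10 called genes with the largest change in CPM each way, and all MAP kinase phosphatases. The text names a part of these, and says where a gene was chosen after its values were seen.

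Alternatives were DESeq2 size factors, library totals, upper-quartile factors, no low-count filter, a stricter one (1 CPM or more in every library of either 4 h group and 10 counts in any library), DESeq2 1.42.0, limma-voom (limma 3.58.1), only the groups compared, a replicate block, halved counts, a fold change of at least 1.5, each library left out and, chosen after seeing the data, removal of GC and length trends.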

Additional observations from a re-analysis of the deposited data

Results flagged for a closer look

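The test of the 48 h response minus the 4 h response passed for 757 genes, and each value below is that difference on the log2 scale. Among the followed genes it was 0.978 for DUSP6, -1.51 for DUSP1 and 0.676 for RPS6KA1, while others, such as CISH and EGR1, did not pass this test. Among the other MAP kinase phosphatases it was 0.921 for DUSP2 and 0.75 for DUSP7. Among the largest rises at 4 h it was -7.44 for HMOX1, -5.77 for OSGIN1, -7.05 for HSPA6, -5.29 for HSPA1A and -4.91 for HSPA1B. Among the largest falls it was 2.77 for TRIM67, 2.02 for PRF1, 1.91 for WNT11, 1.79 for EPHA1 and 1.66 for CCND1.

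Members whose response differed between the times numbered 30 in ribosome biogenesis, 14 among NRF2 target genes, 11 among HSP90 and co-chaperones, 7 among HSP70 and HSP110 chaperones, 7 among DNAJ co-chaperones, 7 among cyclins, CDKs and inhibitors, and 5 among ubiquitin and autophagy genes.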

How the results depend on the processing

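At 4 h the count of called genes was 2354, and 2361 with DESeq2 size factors, 2316 with library totals, 2279 with upper-quartile factors, 2592 with the stricter filter, 3215 with no filter, 2940 with the DESeq2 test, 2099 with limma-voom and 2421 with halved counts. It was 5691 with only the groups compared, 5876 with only these groups and a replicate block, 191 for a fold change of at least 1.5, and 555 to 693 without 1 library; where a library is left out, the lone sample is assumed to vary like the other groups. At 48 h 0 genes passed except for 27 with no filter and 18 with a replicate block and only the groups compared. The difference between the times gave 757 genes, and 1658 with no filter, 1440 with the DESeq2 test, 1166 with a replicate block, 76 for a fold change of at least 1.5 and 88 to 1705 without 1 library. Same-numbered libraries did not deviate together at 4 h (r = -0.00164, across genes) and did at 48 h (r = 0.316). The numbers were not taken to pair the samples, so a deviation shared at 48 h counts as spread in the main fit. The replicate block called 2936 genes at 4 h (edgeR), with HSPA8 (adjusted p = 0.039), JUN (0.018), FOSB (0.012), TFRC (0.040) and FTL (0.045) among them. Of the 204 genes of the naming rule 197 were called; 93 of these passed in all 4 fits without a library, 74 in none, and 179 with GC and length trends removed. The direction reversed for DUSP4, which was not called, at 0.033 without the second DMSO library and 0.099 without the second BCI library on the log2 scale, in a range of -0.27 to 0.099 without 1 library. The cause of these differences was not tested. By level, 1.69% of genes under 1 CPM in DMSO libraries were called, against 22.7% at 64 to 256 CPM.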

Other observations

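Some genes were lower at 48 h than at 4 h in DMSO libraries too, a difference of time that was not tested. HSPA5 had 237 and 206 CPM in DMSO libraries at 48 h and 1171 and 1170 CPM in those at 4 h. JUN had 9.63 and 30.4 CPM in DMSO libraries at 48 h and 55.0 and 52.2 CPM in those at 4 h.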
